A study of Homo sapiens with 9 samples.

Results

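Small nucleolar RNA (snoRNA) host genes are described here in MDA-MB-231, a mesenchymal-like line of human breast cancer cells, kept in medium of low or high viscosity with or without a knockdown of the ion channel TRPV4. The members are the genes whose symbol is SNHG followed by digits (28 genes), together with GAS5, ZFAS1, EPB41L4A-AS1 and DANCR, which makes 32 of the 60664 genes listed in the count files. RNA was sequenced on day 6 in 3 groups of 3 samples. Cells with a scrambled control hairpin (SC, labelled WT for TRPV4) were kept at 0.77 cP or at 8 cP, and cells with a hairpin that knocks down TRPV4 (shTRPV4) were kept at 8 cP. All cells stably carried a hairpin vector, the medium at 8 cP was thickened with methylcellulose, and no group held the knockdown at 0.77 cP. The comparison within 8 cP therefore asks what the knockdown changes at high viscosity. Whether the knockdown alters the response to viscosity could not be tested. Nothing in the labels says that the 3 samples of a group came from separate cultures, so p-values measure only the spread between these samples, which may be technical. In bulk RNA, fewer cells with a transcript and less of it per cell cannot be told apart.

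snoRNAs are short RNAs of the nucleolus that guide the chemical modification of ribosomal RNA. Box C/D snoRNAs guide 2′-O-methylation, box H/ACA snoRNAs guide pseudouridylation, and their relatives in Cajal bodies (scaRNAs) guide the same changes on spliceosomal RNAs. In vertebrates most of them are cut out of the introns of a longer transcript, the host, and many hosts make no protein. The spliced host RNA is then often read by ribosomes over short frames and removed by nonsense-mediated decay, and many hosts begin, like the mRNAs of ribosomal proteins, with a C and a run of pyrimidines that ties their translation to growth signals. GAS5 was named for its accumulation in growth-arrested cells, ZFAS1 was described in the mammary gland, and DANCR is known for holding progenitor cells back from differentiation.

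The starts of the host transcripts are shown first, because of the pyrimidine run described above. Each stretch runs 5′ to 3′ from 20 bases before the annotated start over 40 bases from it, and capitals mark a C that lies within 5 bases of the start and is followed by at least 4 bases of C or T. RefSeq's table (GRCh38.p14) held a start for 28 members, of which 13 had such a run. The starts shown in this paragraph were taken from those 13. The start of ZFAS1 lies in chr20:49278622-49278681 (+ strand) and the start of SNHG4 in chr5:139274081-139274140 (+ strand). SNHG19 (chr16:2155319-2155378) and SNHG12 (chr1:28581834-28581893) lie on the - strand, and SNHG32 (chr6:31834896-31834955) on the + strand.
ZFAS1: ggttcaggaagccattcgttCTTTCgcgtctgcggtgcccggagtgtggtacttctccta
SNHG4: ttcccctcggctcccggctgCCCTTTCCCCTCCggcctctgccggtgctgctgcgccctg
SNHG19: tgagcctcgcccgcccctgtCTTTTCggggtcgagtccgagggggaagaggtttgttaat
SNHG12: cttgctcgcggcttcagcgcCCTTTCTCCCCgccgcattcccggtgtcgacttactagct
SNHG32: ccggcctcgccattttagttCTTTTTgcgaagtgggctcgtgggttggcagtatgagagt

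Such a run was found at the RefSeq start of 13 of the 28 members in the table (46.4%), of 58 of 78 ribosomal protein genes (74.4%) and of 7408 of 35116 promoters in all (21.1%). The choice of start matters for this count. At the start of the Ensembl canonical transcript in GENCODE release 44 (GRCh38), 9 of 32 members (28.1%) and 10795 of 62700 genes (17.2%) held a run. Of the hosts shown above, SNHG4, SNHG19 and SNHG32 held none at the canonical start, which lies 30, 47 and 308 bases from the RefSeq start. SNHG12 held a different run there, 1113 bases away, and ZFAS1 had the same start and run in both. GAS5 and SNHG29, the members with the most counts, held none at the RefSeq start and one at the canonical start, which lies 1056 bases away for GAS5 (chr1:173867950-173868009, - strand) and 50 bases away for SNHG29 (chr17:16439017-16439076, + strand). EPB41L4A-AS1 (chr5:112160506-112160565, + strand) starts at the same base in both and held no run there, which says only that these letters are not in this window.
GAS5: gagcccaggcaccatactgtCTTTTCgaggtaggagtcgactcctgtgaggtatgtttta
SNHG29: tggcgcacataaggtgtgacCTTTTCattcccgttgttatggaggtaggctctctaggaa
EPB41L4A-AS1: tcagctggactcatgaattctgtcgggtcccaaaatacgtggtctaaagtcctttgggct

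Each library held from 64571681 to 103518036 counts. Levels are CPM, the counts divided by the library size in megareads after TMM scaling. The knocked-down gene TRPV4, with 1 to 64 counts per sample, fell by 2.51 on the log2 scale in shTRPV4 against SC at 8 cP (edgeR, adjusted p = 0.00219). Of the markers of mesenchymal-like breast cancer cells, VIM had group means of 765.9 to 1049 CPM and CD44 of 774.1 to 881.7. Of the epithelial and luminal markers, KRT8 (1076 to 1406 CPM), KRT18 (291.3 to 337.9), ERBB2 (93.24 to 95.51) and EPCAM (18.06 to 18.98) were present in every group, while ESR1 had 0 to 4 counts, PGR 0 to 3 and CDH1 3 to 12 per sample. Of the markers of other cell types, CD3E had at most 6 counts, DCN 2, CDH5 1 and PTPRC 17, whereas COL1A1, PDGFRB and PECAM1 had group means between 2.182 and 6.401 CPM and were lower in SC 8 cP cells than at 0.77 cP (log2 fold changes -0.35, -0.51 and -0.86). VIM, KRT8 and KRT18 were lower in that comparison as well (-0.17, -0.31 and -0.21, adjusted p = 0.0095, 0.00403 and 0.00642, edgeR). CD44, ERBB2 and EPCAM had an adjusted p above 0.05 there. The part of any of these shifts in the changes below was not tested.

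Of the 32 members, 28 passed edgeR's filter on low counts. The other 4 were near 0 in all samples, with 0 to 6 counts per sample for SNHG14, 0 to 8 for SNHG22, 0 to 9 for SNHG27 and 0 to 2 for SNHG28. SNHG14 is the long host from which SNORD115 and SNORD116 are cut, known for its expression in the brain. The members summed to 1219, 1167 and 1146 CPM in the samples of SC 0.77 cP cells, to 1024, 1097 and 1013 CPM in SC 8 cP cells, and to 1001, 1074 and 1086 CPM in shTRPV4 cells. These sums are 0.101% to 0.121% of a sample's counts, and the 3 samples at 0.77 cP lie above the 6 samples at 8 cP. SNHG29, GAS5, SNHG32, SNHG1, SNHG8 and SNHG6 made up 69.2% of the sum in SC 0.77 cP cells, 67.9% in SC 8 cP cells and 64.9% in shTRPV4 cells. SNHG29 alone, the host of SNORD49A, SNORD49B and SNORD65, accounted for 25.6%, 24.4% and 21.0%. Without it the group means of the sum were 876.1, 790.0 and 832.7 CPM.

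**Figure D1:**
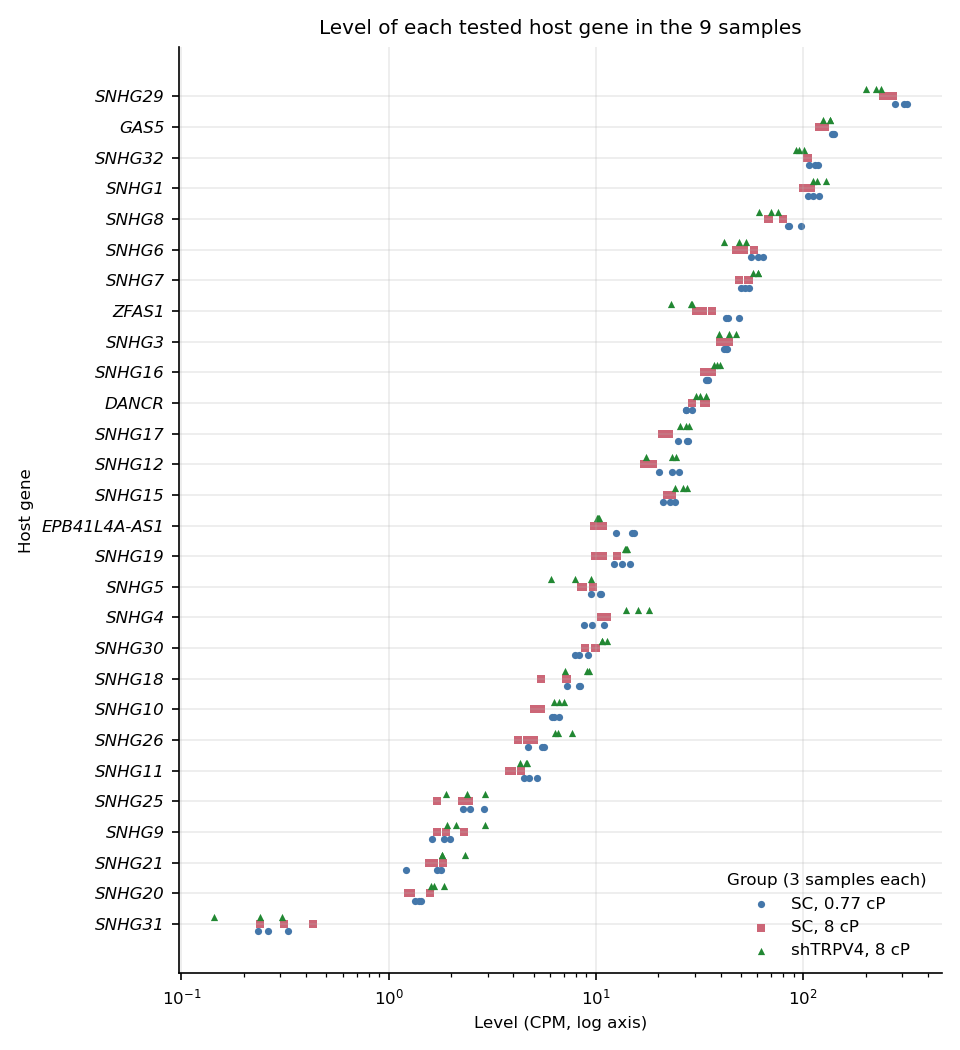
Level of each of the 28 tested host genes in the 9 samples, in CPM on a log axis, with 1 point per sample and 1 colour and marker per group. The levels span from 0.1438 CPM in the lowest sample of SNHG31 to 318.1 CPM in the highest of SNHG29, and the 3 samples of a group lie close together next to the distance between genes.

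Levels of different genes can be compared only per length, and here this was done per kilobase of merged exons in GENCODE, which for many hosts also contain retained introns. On that scale SNHG32, the host of SNORD48 and SNORD52, was highest in SC 0.77 cP cells, at 62.8 ± 3.15 CPM per kb. SNHG29 followed at 33.6 ± 2.3, then GAS5 at 28.2 ± 0.357 and SNHG1 at 28.2 ± 1.61, which do not differ beyond their spread. SNHG1, whose snoRNAs include SNORD22 and SNORD25 to SNORD31, was the first host found without a conserved protein product. The mean ± SD ranges of SNHG6 (23.8 ± 1.58) and SNHG19 (21.8 ± 1.82) overlapped, as did those of SNHG7 (10.7 ± 0.497) and SNHG3 (10.4 ± 0.17) below SNHG8 (13.5 ± 1.09). In shTRPV4 cells SNHG32 was still first, and SNHG1 had the next mean at 29.95 ± 2.26 CPM per kb, with a range that overlapped that of GAS5 (26.64 ± 1.12), and GAS5 overlapped with SNHG29 (24.7 ± 2.16). At the low end were SNHG20, at 0.229 ± 0.00768 CPM per kb in SC 0.77 cP cells, and SNHG31, at 0.1075 ± 0.0188. Shared bases limit this order, since SNHG32 shares 524 of its 1801 exon bases with other genes on its own strand. How reads there were assigned is not given in the sources used here.

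Raised viscosity in SC cells went with lower levels of 9 host genes and a higher level of 1. EPB41L4A-AS1 (1.4-fold) and ZFAS1 (1.36-fold) fell most, followed by SNHG12, SNHG8, SNHG17, SNHG10, SNHG19, SNHG29 and GAS5, and DANCR rose 1.16-fold. The other 18 tested members did not pass the test. Of all 18264 genes tested, 19.3% were called at an adjusted p below 0.05, 9.57% higher and 9.69% lower in SC 8 cP cells, beside 10 of 28 members (35.7%), 1 higher and 9 lower. The median log2 fold change was -0.185 over the 28 members and -0.0065 over all genes tested, and 19 of 28 members had a negative value.

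**Figure D2:**
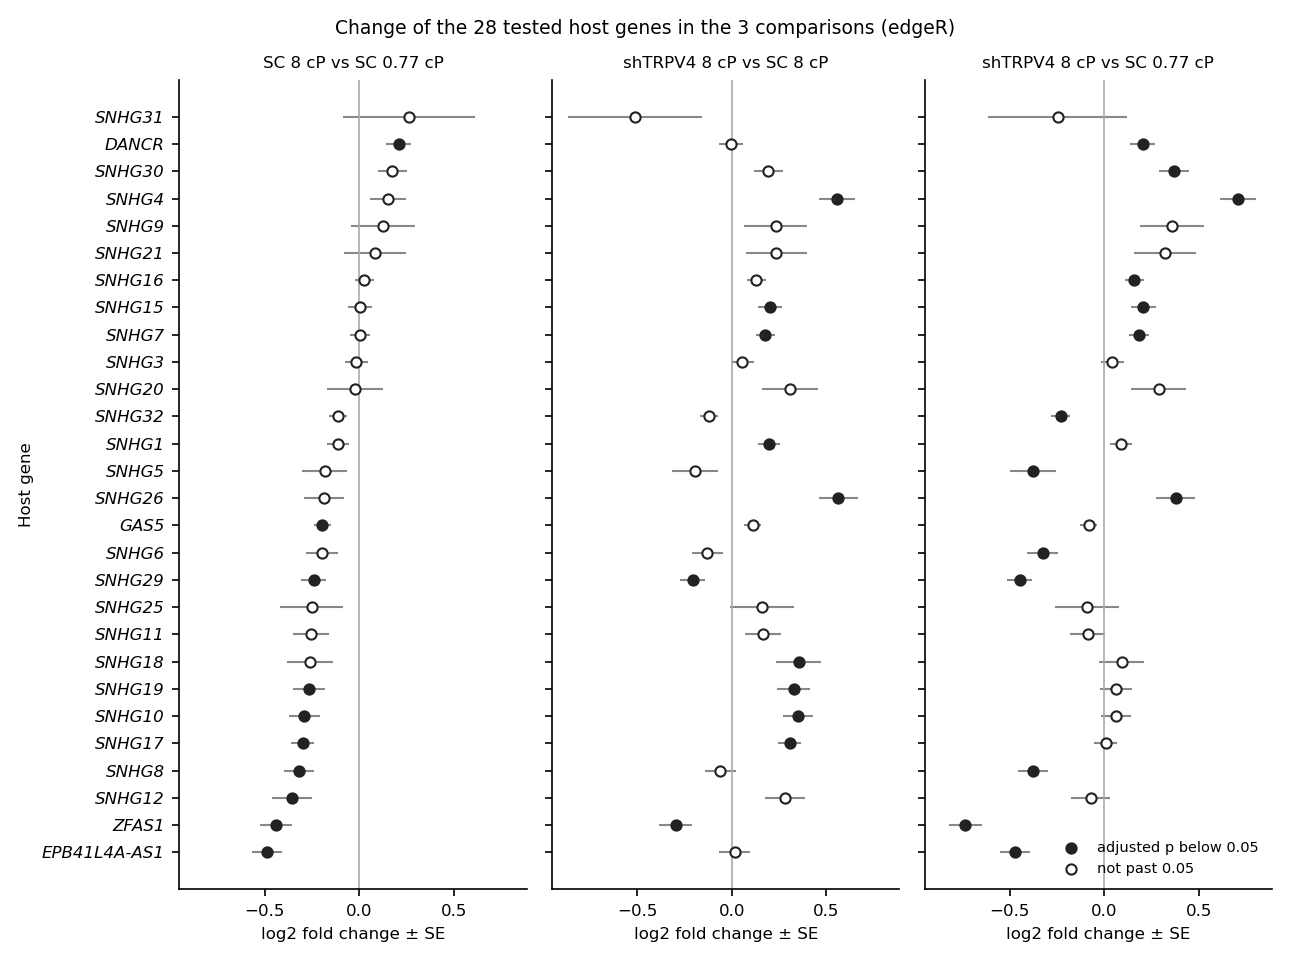
Log2 fold change of the 28 tested host genes with its standard error in the 3 comparisons, ordered by the change from 0.77 to 8 cP in SC cells. Filled points have an adjusted p below 0.05 (edgeR over all genes), and 10, 11 and 14 of the 28 points are filled from left to right.

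ZFAS1, host of SNORD12, SNORD12B and SNORD12C, was at 48.86, 42.45 and 43.48 CPM in SC 0.77 cP cells, and at 32.78, 36.29 and 30.34 CPM in SC 8 cP cells. Every sample at 8 cP lay below every sample at 0.77 cP. The log2 fold change was -0.44 ± 0.085 (SE; adjusted p = 0.00328, edgeR). EPB41L4A-AS1, host of SNORA13, was at 14.86, 15.34 and 12.53 CPM at 0.77 cP and at 9.767, 10.77 and 9.848 CPM at 8 cP, again without overlap, and fell by 0.49 ± 0.08 on the log2 scale (adjusted p = 0.00113, edgeR). SNHG17, which holds the SNORA71 genes, was at 27.88, 24.8 and 27.65 CPM at 0.77 cP and at 22.42, 20.88 and 22.06 CPM at 8 cP. Its samples did not overlap, and its log2 fold change was -0.30 ± 0.062 (adjusted p = 0.00466, edgeR). These 3 genes kept their call in each alternative that was run, including the 9 fits that left out 1 sample.

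GAS5 lost a smaller part of a higher level. Its samples lay within 137.6 to 141.1 CPM at 0.77 cP and 119.1 to 126.8 CPM at 8 cP, a log2 fold change of -0.19 ± 0.045 (adjusted p = 0.00856, edgeR). SNHG8, host of SNORA24, went from 97.75, 85.65 and 84.83 CPM to 67.47, 79.49 and 68.34 CPM, with a log2 fold change of -0.32 ± 0.079 (adjusted p = 0.0126, edgeR). SNHG29 was at 278.1 to 318.1 CPM at 0.77 cP and at 243.0 to 271.0 CPM at 8 cP, which gave -0.24 ± 0.066 (adjusted p = 0.0189, edgeR). None of these 3 genes overlapped between the groups, and they had the largest differences between the group means of all members, at -17.6 CPM for GAS5, -17.6 CPM for SNHG8 and -46.3 CPM for SNHG29. SNHG10, host of SCARNA13 (adjusted p = 0.0217), and SNHG12, host of SNORD99 and of several H/ACA snoRNAs (adjusted p = 0.0278), fell by 0.29 ± 0.081 and 0.36 ± 0.105 on the log2 scale without overlap (edgeR). SNHG19, host of SNORD60, fell by 0.27 ± 0.086 (adjusted p = 0.043, edgeR), but its samples at 8 cP (9.947 to 12.66 CPM) overlapped with those at 0.77 cP (12.29 to 14.52 CPM). DANCR, host of SNORA26, was at 27.05 to 29.12 CPM at 0.77 cP and 29.14 to 33.99 CPM at 8 cP, with the lowest of the second group just above the highest of the first (log2 fold change 0.21 ± 0.064, adjusted p = 0.0344, edgeR).

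Some members that were not called were also lower in every sample at 8 cP than in any at 0.77 cP. They were SNHG11 (-0.25 ± 0.094, adjusted p = 0.0694), SNHG18 (-0.26 ± 0.12, adjusted p = 0.144) and SNHG32 (-0.11 ± 0.048, adjusted p = 0.119, edgeR). The share of all genes tested whose samples did not overlap was not computed. A lack of overlap alone therefore does not set a member apart from other genes. SNHG6, host of SNORD87, had a log2 fold change of -0.20 ± 0.083 (adjusted p = 0.107) and SNHG5 of -0.18 ± 0.121 (adjusted p = 0.315), both with overlap. SNHG7, SNHG15, SNHG3, SNHG16 and SNHG20 had fold changes between -0.021 and 0.028. The remaining uncalled values were -0.11 for SNHG1, -0.19 for SNHG26, -0.25 for SNHG25, 0.18 for SNHG30, 0.15 for SNHG4, 0.13 for SNHG9, 0.09 for SNHG21 and 0.26 ± 0.35 for SNHG31.

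How many members were called between the viscosities rested on single samples. So did the number of all genes called, which was 3518 in the fit to all samples. In the fits that left out 1 sample it ranged from 1409 (without SC 0.77 cP replicate 1) to 4349. A lower number of members called in such a fit therefore does not by itself set the hosts apart from other genes. Without SC 8 cP replicate 3 only ZFAS1, EPB41L4A-AS1 and SNHG17 remained of the 10 (3 called), without SC 0.77 cP replicate 1 those and GAS5 (4 called), and without SC 8 cP replicate 1 those 4 and DANCR (5 called). The count was 7 without SC 0.77 cP replicate 2, where SNHG29, DANCR and SNHG19 lost their call, 10 without SC 0.77 cP replicate 3 (SNHG12 and SNHG10 lost, SNHG32 and SNHG30 gained), and 9 without SC 8 cP replicate 2, where DANCR lost it. SNHG19 also lost its call without shTRPV4 replicate 2 or replicate 3.

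Knockdown of TRPV4 at 8 cP went with higher levels of 9 host genes and lower levels of 2. SNHG4 (1.47-fold) and SNHG26 (1.48-fold) rose most, followed by SNHG18, SNHG10, SNHG19, SNHG17, SNHG1, SNHG15 and SNHG7, while ZFAS1 fell 1.23-fold and SNHG29 1.15-fold. The other 17 tested members did not pass the test. Of all genes tested, 20.0% were called, 9.02% higher and 11.0% lower in shTRPV4 cells, beside 11 of 28 members (39.3%). The median log2 fold change was 0.171 over the 28 members and 0.00065 over all genes tested, and 20 of 28 members had a positive value. This comparison and the one between viscosities use the same 3 samples of SC 8 cP cells, so a value that is low there moves a gene down in one and up in the other.

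SNHG4, host of SNORA74A, was at 10.82, 10.53 and 11.26 CPM in SC 8 cP cells and at 18.02, 15.92 and 13.96 CPM in shTRPV4 cells. The groups did not overlap, and shTRPV4 cells had the wider spread. SNHG4 thus rose by 0.56 ± 0.094 on the log2 scale (adjusted p = 0.000722, edgeR). SNHG26, host of SNORD93, went from 4.661, 4.213 and 5.001 CPM to 7.63, 6.529 and 6.337 CPM, again without overlap (0.56 ± 0.103, adjusted p = 0.00131, edgeR). SNHG17 (0.31 ± 0.062, adjusted p = 0.00268) and SNHG10 (0.35 ± 0.081, adjusted p = 0.00657) rose without overlap in edgeR's fit. SNHG17 was at 25.34 to 28.17 CPM in shTRPV4 cells, within the range spanned with SC 0.77 cP cells (24.8 to 27.88 CPM) apart from its highest sample. These 4 genes kept their call in each alternative that was run.

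SNHG19 was at 13.86, 14.08 and 14.02 CPM in shTRPV4 cells, against 10.82, 12.66 and 9.947 CPM in SC 8 cP cells, and rose by 0.33 ± 0.086 on the log2 scale (adjusted p = 0.0145, edgeR). SNHG7, host of SNORA17A and SNORA17B, was at 57.47 to 60.5 CPM against 49.18 to 54.54 CPM (0.18 ± 0.052, adjusted p = 0.0255, edgeR). SNHG1 was at 111.7 to 129.1 CPM against 99.59 to 108.9 CPM (0.20 ± 0.059, adjusted p = 0.026, edgeR). The samples of these 3 genes did not overlap, and neither did those of SNHG15, host of SNORA9 (0.20 ± 0.064, adjusted p = 0.0377, edgeR). SNHG18, host of SNORD123, just passed the threshold (0.35 ± 0.12, adjusted p = 0.0491, edgeR) with overlapping samples, at 7.095 to 9.29 CPM against 5.431 to 7.257 CPM. It lost the call in 10 of 15 alternatives, among them upper quartile scaling and the fit to the 6 samples of the comparison alone.

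ZFAS1 went the other way, to 23.1, 28.85 and 29.06 CPM in shTRPV4 cells from 32.78, 36.29 and 30.34 CPM in SC 8 cP cells. All 3 samples lay below those of SC cells (log2 fold change -0.30 ± 0.087, adjusted p = 0.0247, edgeR). SNHG29 was at 200.2, 223.5 and 238.5 CPM against 249.7, 271.0 and 243.0 CPM, also without overlap (-0.21 ± 0.066, adjusted p = 0.0373, edgeR). In both genes shTRPV4 replicate 1 was lowest, as it was in SNHG5, SNHG6 and SNHG8. SNHG32 lay below SC 8 cP cells in every shTRPV4 sample without passing the test (-0.12 ± 0.048, adjusted p = 0.085). SNHG16 (0.13 ± 0.049, adjusted p = 0.0791), SNHG30 (0.19 ± 0.077, adjusted p = 0.0938) and SNHG20 (0.31 ± 0.146, adjusted p = 0.159, edgeR) lay above them in every sample. For this comparison, too, the share of all genes tested without overlap was not computed. GAS5 had a log2 fold change of 0.11 ± 0.045 (adjusted p = 0.0996) and SNHG12 of 0.28 ± 0.106 (adjusted p = 0.0721), and SNHG12 did pass with DESeq2. EPB41L4A-AS1 (0.01 ± 0.081), DANCR (-0.0057 ± 0.064) and SNHG8 (-0.06 ± 0.08) had values near 0.

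**Figure D3:**
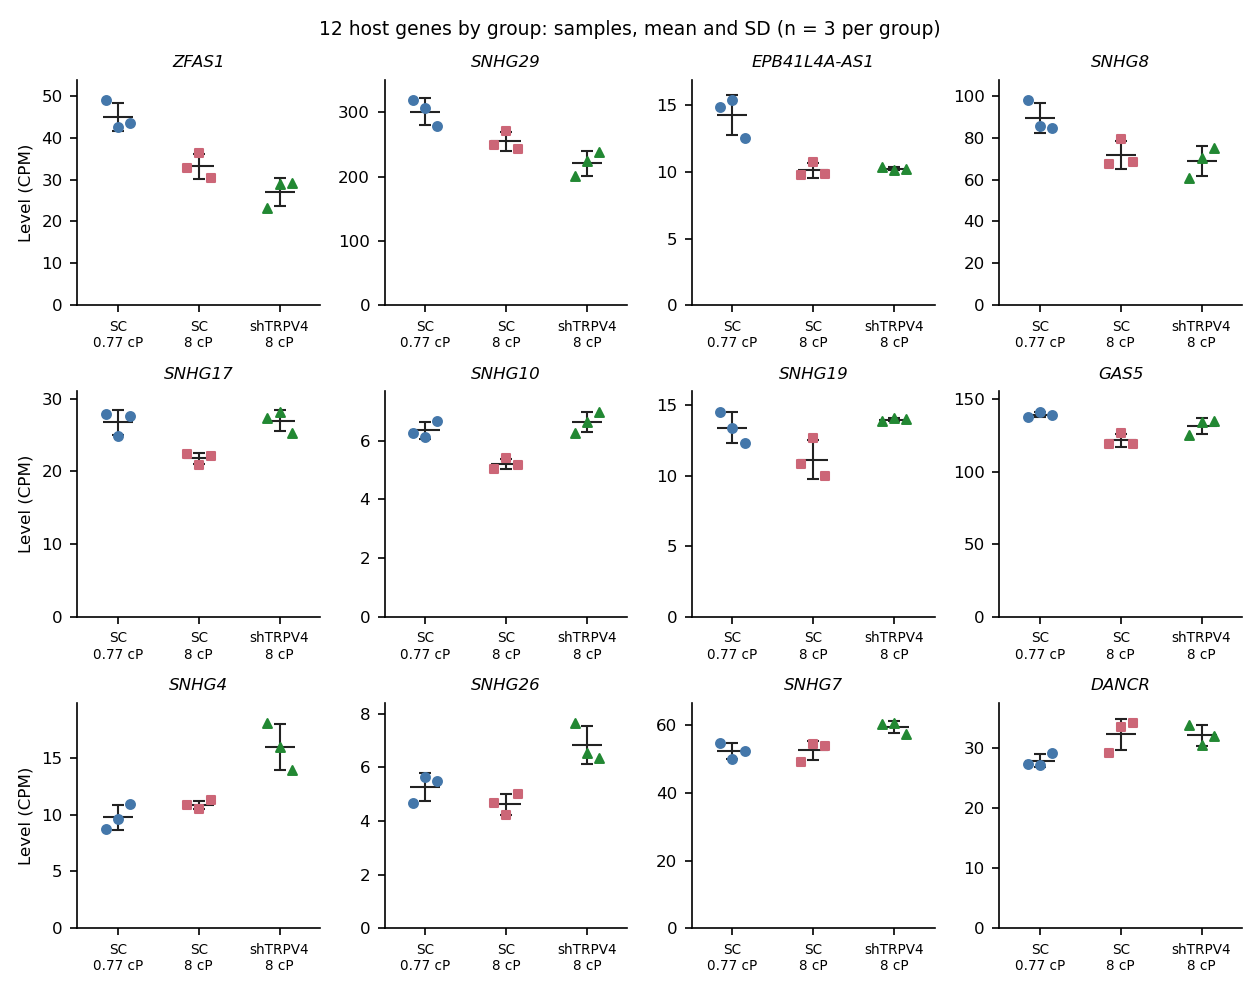
CPM of 12 host genes by group, with 1 point per sample, the mean as a horizontal line and the SD as bars (n = 3 per group), on axes that start at 0. ZFAS1 and SNHG29 step down from left to right, SNHG17, SNHG10 and SNHG19 are lowest in SC 8 cP cells, and SNHG4 and SNHG26 are highest in shTRPV4 cells.

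Leaving out single samples also changed this count. It was 4 without SC 8 cP replicate 1, where SNHG4, SNHG26, SNHG17 and SNHG10 remained, 6 without shTRPV4 replicate 2, and 7 without SC 8 cP replicate 2 or replicate 3. ZFAS1 lost its call without SC 8 cP replicate 1 or 2 and without shTRPV4 replicate 1, and SNHG29 in the same fits and without shTRPV4 replicate 2. SNHG15 kept its call in 9 of 15 alternatives. The count was 9 without shTRPV4 replicate 1 (GAS5 gained) and 12 without shTRPV4 replicate 3 (SNHG12, SNHG5 and SNHG32 gained). Of all genes tested, 3649 were called in the fit to all samples. With 1 sample left out, this number ranged from 2179 (without SC 8 cP replicate 2) to 3836. Whether members lost their calls more often than other genes was not tested.

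Between shTRPV4 cells and SC 0.77 cP cells, which differ in viscosity and in TRPV4 together, 7 members fell and 7 rose. Of all genes tested, 42.4% were called, 20.4% higher and 22.0% lower in shTRPV4 cells, beside 14 of 28 members. ZFAS1 had the strongest fall, to 27 ± 3.38 CPM from 44.9 ± 3.445 CPM (SD, n = 3), which is 1.67-fold lower (log2 fold change -0.74 ± 0.086, adjusted p = 8.28e-06, edgeR). SNHG4 had the strongest rise, to 16 ± 2.03 CPM from 9.77 ± 1.09 CPM, which is 1.63-fold higher (0.71 ± 0.095, adjusted p = 2.98e-05, edgeR). The samples of neither gene overlapped between these groups. The share of all genes tested without overlap was not computed here either, so this does not set members apart from other genes.

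The other members that fell were EPB41L4A-AS1 (-0.47 ± 0.08), SNHG29 (-0.45 ± 0.066), SNHG5 (-0.38 ± 0.122), SNHG8 (-0.38 ± 0.08), SNHG6 (-0.33 ± 0.083) and SNHG32 (-0.23 ± 0.048), with adjusted p between 6.52e-05 and 0.0204 in edgeR. SNHG5, host of SNORD50A and SNORD50B, was the only one of them with overlap, at 6.047 to 9.5 CPM against 9.499 to 10.6 CPM, and it lost its call without shTRPV4 replicate 1 or without SC 0.77 cP replicate 1 or 2. The other members that rose were SNHG26 (0.38 ± 0.103), SNHG30 (0.37 ± 0.078), SNHG15 (0.21 ± 0.064), DANCR (0.20 ± 0.064), SNHG7 (0.18 ± 0.052) and SNHG16 (0.16 ± 0.05), with adjusted p between 0.00134 and 0.0192 in edgeR and no overlap. As above, no share over all genes tested stands beside this lack of overlap. SNHG30 hosts SNORD7 and SNHG16 hosts the SNORD1 genes. DANCR, SNHG15 and SNHG16 each lost the call in 2 or 3 fits without 1 sample, namely SC 0.77 cP replicates 1 and 2 and shTRPV4 replicate 1 for DANCR, SC 0.77 cP replicate 2 and shTRPV4 replicates 2 and 3 for SNHG15, and shTRPV4 replicates 2 and 3 for SNHG16. SNHG17, SNHG10 and SNHG19, which were lower in SC 8 cP cells than in either other group, had values of 0.0070 ± 0.062, 0.06 ± 0.08 and 0.06 ± 0.086 here, and GAS5 had -0.08 ± 0.045.

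In all, 21 of the 28 tested members were called in at least 1 comparison and 7 in none (SNHG3, SNHG9, SNHG11, SNHG20, SNHG21, SNHG25 and SNHG31). ZFAS1 and SNHG29 were called lower in all 3. For all genes tested, the shares called in at least 1 or in all 3 comparisons were not computed, and the third alone called 42.4%. By the snoRNAs they hold, the 11 box C/D hosts gave 3 lower between the viscosities, 4 higher and 2 lower with the knockdown, and 3 higher and 5 lower between shTRPV4 cells and SC 0.77 cP cells. The 11 box H/ACA hosts gave 1 higher and 3 lower, then 4 higher, then 4 higher and 2 lower. Of the 3 hosts of scaRNAs only SNHG10 was called, and of the 3 hosts of both boxes (GAS5, SNHG12 and SNHG25) 2 fell between the viscosities. Of all genes tested, 19.3%, 20.0% and 42.4% were called in the 3 comparisons, and differences between these small classes were not tested. Hosts with and without a pyrimidine run at the RefSeq start had medians of -0.18 (13 tested) and -0.19 (11 tested) between the viscosities, and 0.13 and 0.19 with the knockdown.

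The proteins that bind snoRNAs and build the particles (snoRNPs) were taken as a list of 17 genes. Between the viscosities 7 of them rose and 1 fell (median log2 fold change 0.145, beside -0.185 for the hosts), 6 rose and 1 fell with the knockdown (median 0.144), and 12 rose and 3 fell between shTRPV4 cells and SC 0.77 cP cells (median 0.29). These are 47.1%, 41.2% and 88.2% of the list, beside 19.3%, 20.0% and 42.4% of all genes tested. DKC1, the pseudouridine synthase of H/ACA particles, rose from 123.7 to 156.7 CPM with viscosity (0.34 ± 0.059, adjusted p = 0.00173, edgeR) and stood at 185 CPM in shTRPV4 cells. SHQ1, which assists its assembly, rose by 0.21 ± 0.062 with viscosity (adjusted p = 0.0249, edgeR). With the knockdown ZNHIT6, an assembly factor of C/D particles, rose by 0.30 ± 0.046 (adjusted p = 0.000288), and RUVBL2, an ATPase of the assembly complex, fell by 0.22 ± 0.043 (adjusted p = 0.00254, edgeR).

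Factors of nonsense-mediated decay and of the exon junction complex, which act on many spliced hosts, were called higher in 3 of 15 genes between the viscosities, in 3 of 15 with the knockdown and in 9 of 15 between shTRPV4 cells and SC 0.77 cP cells. In the first and second comparison these are 20.0% of the list, at the share of all genes tested (19.3% and 20.0%), and in the third all genes were called at 42.4%. SMG9 (0.26 ± 0.058, adjusted p = 0.00732) and SMG8 (0.20 ± 0.049, adjusted p = 0.0118), which regulate the kinase SMG1, rose with viscosity (edgeR). EIF4A3, a core protein of the exon junction complex (0.16 ± 0.043, adjusted p = 0.0162), rose with the knockdown, and UPF3B (0.30 ± 0.055, adjusted p = 0.000512) and SMG5 (0.29 ± 0.056, adjusted p = 0.000655) between shTRPV4 cells and SC 0.77 cP cells (edgeR).

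Of the 79 cytosolic ribosomal protein genes, most of which have a pyrimidine start, 1 rose and 6 fell with viscosity (median -0.06), 3 rose and 4 fell with the knockdown (median -0.098), and 5 rose and 44 fell between shTRPV4 cells and SC 0.77 cP cells (median -0.15). The shares called were 8.86%, 8.86% and 62.0%, below those of all genes in the first and second comparison and above it in the third. With the knockdown their median was negative and that of the hosts positive. RPS9 fell by 0.27 ± 0.066 with viscosity (adjusted p = 0.0108, edgeR). RPS26 rose by 0.20 ± 0.044 with viscosity, RPL36A by 0.55 ± 0.097 with the knockdown and RPS10 by 0.93 ± 0.138 between shTRPV4 cells and SC 0.77 cP cells (adjusted p = 0.00758, 0.00099 and 6.95e-05, edgeR), the last 2 from means under 5 CPM. Ribosomal protein genes share reads with many processed pseudogenes.

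**Figure D4:**
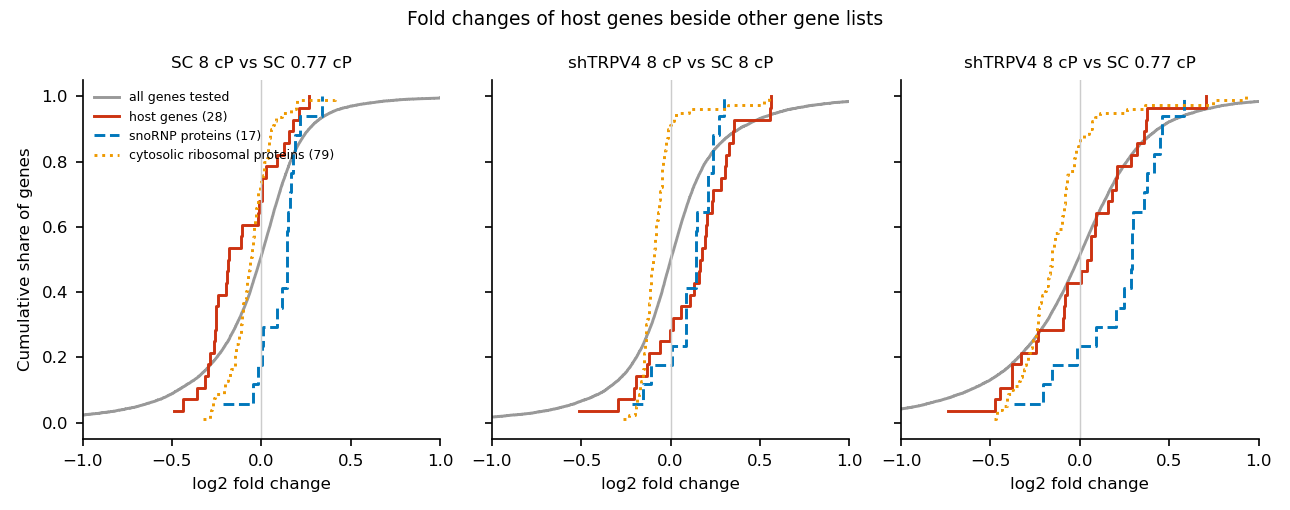
Cumulative share of genes by log2 fold change in the 3 comparisons, for all 18264 genes tested, the 28 host genes, 17 genes of snoRNPs and 79 ribosomal protein genes, with the axis limited to -1 to 1. The host genes lie left of all genes between the viscosities (median -0.185) and right of them with the knockdown (median 0.171).

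Among 227 protein-coding genes with a snoRNA gene in an intron, 185 were tested. Between the viscosities 31 rose and 10 fell (median 0.06), with the knockdown 24 rose and 21 fell (median 0.02), and between shTRPV4 cells and SC 0.77 cP cells 58 rose and 36 fell (median 0.07). The shares called (22.2%, 24.3% and 50.8%) were close to those of all genes tested (19.3%, 20.0% and 42.4%). NDC1, a nucleoporin (0.35 ± 0.061, adjusted p = 0.00182), PCNA, the sliding clamp of DNA replication (0.27 ± 0.047, adjusted p = 0.0019), and TIPIN, a replication fork factor (0.44 ± 0.081, adjusted p = 0.0023), rose with viscosity (edgeR). With the knockdown SEC14L1 rose by 0.48 ± 0.046 (adjusted p = 4.72e-06), while SLC2A13, a myo-inositol transporter, fell by 0.95 ± 0.076 (adjusted p = 7.43e-07, edgeR). EDA, the ligand ectodysplasin, fell from 1.51 to 0.3264 CPM, a log2 fold change of -2.2 ± 0.222 (adjusted p = 6.33e-06, edgeR). SEC14L1 shares exon bases on the same strand with SNHG20, whose log2 fold change was 0.31 ± 0.146.

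Several hosts start back to back with a protein-coding gene, and their values are set side by side here, with no test of the difference. SLC3A2, the heavy chain of amino acid transporters, starts 51 bases from SNHG1 on the other strand and rose from 231.2 to 278.2 CPM with viscosity (0.27 ± 0.058, adjusted p = 0.00609) and to 337.3 CPM with the knockdown (0.28 ± 0.058, adjusted p = 0.00321, edgeR). SNHG1 had -0.11 ± 0.059 in the first and rose by 0.20 ± 0.059 in the second. SEMA5A, a semaphorin that starts 95 bases from SNHG18, fell by 0.66 ± 0.131 with viscosity (adjusted p = 0.00354) and had -0.27 ± 0.135 with the knockdown, where SNHG18 had 0.35 ± 0.12. RPS2, 54 bases from SNHG9, fell by 0.30 ± 0.053 between shTRPV4 cells and SC 0.77 cP cells (adjusted p = 0.000314), beside 0.36 ± 0.169 for SNHG9. ZNFX1, whose 5′ end overlaps that of ZFAS1 on the other strand, had 0.09 ± 0.053, 0.0044 ± 0.053 and 0.09 ± 0.053 in the 3 comparisons, while ZFAS1 fell in each.

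**Figure D5:**
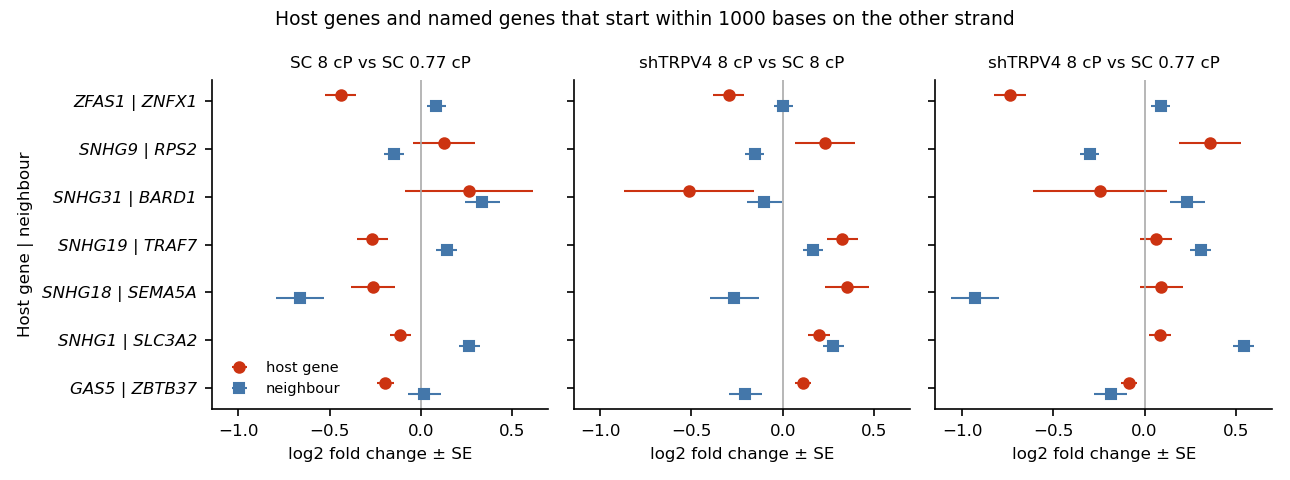
Log2 fold change with its standard error of 7 host genes (circles) and of the named gene that starts within 1000 bases on the other strand (squares), in the 3 comparisons. ZFAS1 lies left of ZNFX1 in each panel, and SNHG1 lies left of SLC3A2 by the widest margin between shTRPV4 cells and SC 0.77 cP cells (0.09 against 0.54).

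TRAF7, whose start is 293 bases from that of SNHG19, had 0.14 ± 0.056 with viscosity and rose by 0.17 ± 0.056 with the knockdown (adjusted p = 0.0469, edgeR), where SNHG19 rose as well. BARD1, 498 bases from SNHG31, rose by 0.34 ± 0.096 with viscosity (adjusted p = 0.0236, edgeR). ZBTB37, whose 5′ end overlaps that of GAS5 on the other strand, passed in none of the comparisons (values between -0.20 and 0.02). ACAA2, 12 bases from SNHG22, had group means of 24.06 to 26.36 CPM where SNHG22 had at most 8 counts. Of 4 further neighbours known only by an identifier, ENSG00000272668 beside SNHG28 fell by 0.92 ± 0.204 with viscosity (adjusted p = 0.00661, edgeR), ENSG00000267546 beside SNHG16 was not called, and ENSG00000286817 and ENSG00000255513 had at most 2 counts.

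The snoRNA genes inside the hosts are listed as genes of their own, 145 in GENCODE, 84 of them in SNHG14. GENCODE lists none inside GAS5, where RefSeq places 11. Poly(A)-selected libraries do not capture mature snoRNAs, and how reads on 2 overlapping genes were assigned is not given in the sources used here. In the 28 tested hosts, 45 snoRNA genes overlap exon bases of the host and 42 of these had 0 counts in all 9 samples, while 10 of the 12 without such overlap had counts. These counts are therefore not levels of the mature snoRNAs, and whether reads on them are missing from the counts of their hosts was not tested. The 6 snoRNA genes that passed the filter were SNORD104 in SNHG25 (306 to 526 counts), SNORA73B in SNHG3 (12 to 61), SNORD99 in SNHG12 (12 to 52), SNORA71B in SNHG17 (2 to 31), SNORD12C in ZFAS1 (7 to 19) and SNORA13 in EPB41L4A-AS1 (4 to 12).

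Sequences of 4 of these are shown from GENCODE 5′ to 3′, for the hosts with the strongest falls and for the snoRNA genes with the highest count and with a call. Capitals mark TGATGA (box C) and the last CTGA (box D) in the SNORD genes, which 227 of 313 SNORD transcripts hold in that order (72.5%), and the ACA that lies 3 bases before the end in the SNORA genes, found in 142 of 214 SNORA transcripts (66.4%). SNORD12C (chr20:49278940-49279028) and SNORD104 (chr17:64146083-64146152) lie in an intron of their host. SNORA13 (chr5:112161485-112161617) lies within exon bases of EPB41L4A-AS1, and SNORA73B (chr1:28508559-28508762) in an intron of SNHG3. All lie on the + strand (GRCh38).
SNORD12C: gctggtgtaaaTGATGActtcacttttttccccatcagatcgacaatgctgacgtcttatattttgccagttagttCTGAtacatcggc
SNORD104: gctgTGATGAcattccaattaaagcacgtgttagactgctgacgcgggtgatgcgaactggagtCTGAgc
SNORA13: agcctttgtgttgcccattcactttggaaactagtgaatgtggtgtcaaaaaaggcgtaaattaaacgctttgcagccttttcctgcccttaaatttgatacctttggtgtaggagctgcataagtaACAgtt
SNORA73B: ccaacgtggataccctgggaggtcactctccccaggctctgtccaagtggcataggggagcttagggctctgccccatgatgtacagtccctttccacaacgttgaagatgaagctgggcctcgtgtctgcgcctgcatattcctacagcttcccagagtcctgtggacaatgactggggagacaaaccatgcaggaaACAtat

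SNORA73B had 27, 12 and 21 counts in SC 0.77 cP cells, 61, 38 and 29 in SC 8 cP cells, and 33, 52 and 61 in shTRPV4 cells. Its log2 fold change was 0.96 ± 0.35 with viscosity (adjusted p = 0.0665), 0.34 ± 0.318 with the knockdown (adjusted p = 0.499) and 1.30 ± 0.346 between shTRPV4 cells and SC 0.77 cP cells (adjusted p = 0.00664, edgeR). Its host SNHG3 had -0.01 ± 0.062, 0.06 ± 0.062 and 0.04 ± 0.062. SNHG3 shares 448 of its 4088 exon bases on its own strand with RCC1 and SNORA73A. Which transcripts gave the reads at SNORA73B was not tested. SNORD12C had 0.24 ± 0.403, 0.33 ± 0.384 and 0.57 ± 0.398, with none called, while its host ZFAS1 fell. SNORD99 had -0.93 ± 0.33 with viscosity (adjusted p = 0.0588) and 0.85 ± 0.332 with the knockdown (adjusted p = 0.0865), with the signs of its host SNHG12. SNORD104, SNORA13 and SNORA71B were not called in any comparison.

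Overlap with other genes limits some of these counts, since the strand setting of the counting is not given in the sources used here. EPB41L4A-AS1 shares 2200 of 4293 exon bases with EPB41L4A on the other strand and SNHG8 shares 2487 of 6614 with PRSS12. With the knockdown EPB41L4A fell by 1.01 ± 0.276 and PRSS12 by 0.86 ± 0.087 (adjusted p = 0.018 and 6.7e-06, edgeR), beside 0.01 for EPB41L4A-AS1 and -0.06 for SNHG8. With viscosity EPB41L4A had -0.40 ± 0.25 (adjusted p = 0.284) and PRSS12 -0.01 ± 0.084, where both hosts fell. Between shTRPV4 cells and SC 0.77 cP cells the antisense gene fell together with its host in both pairs, with log2 fold changes of -1.41 ± 0.272 for EPB41L4A (adjusted p = 0.000649) beside -0.47 for EPB41L4A-AS1 and of -0.87 ± 0.087 for PRSS12 (adjusted p = 1.88e-06) beside -0.38 for SNHG8 (edgeR). SNHG6 shares 1488 of 2527 exon bases with MCMDC2 on the other strand, which had -1.21 ± 0.476 in that comparison (adjusted p = 0.0526, edgeR), where SNHG6 fell. ZFAS1 shares exon bases with ZNFX1 on the other strand, whose values were near 0. SNHG4 shares 626 of 4469 exon bases with MATR3 on its own strand, and the MATR3 gene tested here had -0.18 ± 0.128 with the knockdown, where SNHG4 rose. SNHG29 shares 500 of 8947 bases with LRRC75A, which fell by 0.46 ± 0.091 with the knockdown (adjusted p = 0.00231, edgeR) and had -0.01 ± 0.09 with viscosity, and SNHG7 shares 1482 of 4893 with DIPK1B, which rose by 0.30 ± 0.07 with the knockdown (adjusted p = 0.00811, edgeR). The part of these overlaps in the host counts was not tested.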

How the data were processed

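RNA of 9 samples of MDA-MB-231 cells was measured, 3 per group, with groups and replicate numbers taken from the sample titles. Per the study's methods and processing notes, the authors mapped reads of stranded poly(A) libraries to GRCh38.p13 with HISAT2 2.2.1 and totalled exon reads per Ensembl gene with HTSeq 0.13.5, and they deposited raw counts per gene without normalization (60664 genes, 60463 matched to a symbol in GENCODE release 44). The members and gene lists were chosen with earlier results of these data known. In R 4.3.3, edgeR 4.0.16 was applied to the deposited counts: filterByExpr (18264 genes), TMM scaling, 1 coefficient per group over all 9 samples, and the quasi-likelihood test for 3 comparisons, with Benjamini-Hochberg adjustment over all genes tested and a threshold of 0.05. "Called" and "did not pass" refer to this. Of each list the 2 genes with the smallest adjusted p per comparison are named (3 for protein-coding hosts), and in the text only where not named before. Some genes that this rule selects are not reported here. Genes that overlap members were picked after their values were seen. The common biological coefficient of variation was 0.0633. The libraries carry no molecular identifiers. Alternatives were DESeq2 1.42.0 (size factors, Wald test), upper quartile scaling, no filter, a minimum of 10 counts in each sample, a fit to the 6 samples compared, the replicate number as a block, and each sample left out. Fold changes are log2 of the group named first over the second, ± SE. Sequences come from RefSeq (GRCh38.p14) and GENCODE 44 (GRCh38). Coordinates are 1-based.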

Additional observations from a re-analysis of the deposited data

How the results depend on the processing

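The numbers of host genes called were 10 to 11 (10 as reported) between the viscosities, 9 to 12 (11) with the knockdown and 14 in the third comparison under DESeq2, upper quartile scaling, other filters, the 6 samples alone and the replicate block, and no log2 fold change of a called member changed sign. Leaving out 1 sample gave 3 to 11, 4 to 12 and 11 to 14 host genes, and 1409 to 4349, 2179 to 3836 and 6318 to 7705 of all genes tested. In these fits a group of 2 is assumed to vary like the others. With the replicate number as a block 10, 9 and 14 host genes were called, SNHG29 and SNHG18 being lost with the knockdown. The numbers share no source in the labels, and deviations from the group means correlated at -0.0546 to 0.0904 for the 9 sample pairs of the same number and at -0.106 to 0.115 for the 18 others, so samples were not treated as paired. SNHG6 was called lower with viscosity without the low-count filter and in the fit to 6 samples. The medians of all genes moved by less than 0.1 under each scaling. Low counts limit SNHG14, SNHG22, SNHG27, SNHG28 and the snoRNA genes. An exact permutation test of 3 samples against 3 cannot give a two-sided p under 0.1. This bound also holds for genes whose samples do not overlap, and the share of such genes among all genes tested was not computed.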
